A study of Homo sapiens with 6 samples.

Results

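The miR-183 cluster comprises the mature miRNAs hsa-miR-183-5p, hsa-miR-96-5p and hsa-miR-182-5p (written without the species prefix from here on), which are processed from neighbouring hairpins on chromosome 7. Its 3 members were picked by name from the 503 mature miRNAs listed in each count table, and all 3 were listed. Small RNA was sequenced from exosomes, the small vesicles that cells release, of MDA-MB-231, a widely used human cell line of triple-negative breast carcinoma with mesenchymal character. In shMCU cells (3 libraries) a hairpin was directed against MCU, whose product forms the channel through which calcium enters mitochondria, and shNC cells (3 libraries) carried a control hairpin. Both were stable clones kept for 48 h in medium with exosome-free serum. How many clones a group held and whether its libraries came from separate cultures are not stated in the labels, so the p-values rest on a spread between libraries that may be no more than technical. A small RNA library does not measure the MCU transcript, and the knockdown was not checked here.

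A miRNA guides a silencing complex to messenger RNAs that pair with its seed, the bases near its 5′ end, and related miRNAs with like seeds can share targets. The members of this cluster are made from a shared primary transcript. They were first known for their high levels in sensory organs such as the inner ear and retina, where they are needed for the hair cells and photoreceptors to mature. In many carcinomas, breast carcinoma included, the cluster is found at raised levels, and FOXO1, a transcription factor that restrains growth, is a known shared target.

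The hairpins lie on the minus strand of chromosome 7 in GRCh38, in the order of transcription MIR183 (chr7:129774905-129775014), MIR96 (chr7:129774692-129774769) and MIR182 (chr7:129770383-129770492). MIR183 and MIR96 are separated by 135 bases and MIR96 and MIR182 by 4199 bases, and the whole cluster spans 4632 bases. No other gene of GENCODE release 29 overlapped any of the hairpins on either strand. The nearest protein-coding genes on either side were UBE2H and NRF1. The mature sequences from RefSeq (GRCh38.p14) are shown because the members differ from each other within the seed, which is given in capitals (bases 2 to 8 from the 5′ end), and because miR-1271-5p, from chromosome 5, is the remaining listed miRNA with such a seed:
miR-183-5p: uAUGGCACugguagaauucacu
miR-182-5p: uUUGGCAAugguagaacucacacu
miR-96-5p: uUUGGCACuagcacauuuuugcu
miR-1271-5p: cUUGGCACcuagcaagcacuca

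The seeds of the members share the core UGGCA at bases 3 to 7. Of 2370 human mature miRNAs in the RefSeq table, 10 (0.422%) have this core at that place, and 4 of them were listed in the count tables (437 of the 503 listed names matched that table), which are the sequences shown above. The seed of miR-182-5p differs from that of miR-96-5p by A8C, and that of miR-183-5p differs from that of miR-96-5p by A2U. Between miR-183-5p and miR-182-5p the seed differs by A2U and C8A. Over the whole miRNA, seed included, this pair had 18 of 22 positions identical when aligned from the 5′ end without gaps. miR-96-5p shares 13 of 22 positions with miR-183-5p and 12 of 23 with miR-182-5p. miR-96-5p has the same seed as miR-1271-5p.

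The libraries were shallow, with totals of 12859 to 14692 miRNA counts in shMCU and 11563 to 47863 in shNC, so 1 read corresponds to between 20.9 and 86.5 CPM (counts scaled to each library's total over all listed miRNAs). The library of shMCU replicate 3 stood apart. It scored 6.22 on the first principal component of log2 CPM (45.9% of the variance), against -2.62 to 1.96 in the other 5 libraries, and it had the highest level of the liver miRNA miR-122-5p (103660 CPM, against 23589 CPM as the lowest shMCU value and 12281 to 23296 CPM in shNC). All 7 miRNAs of a list typical of a mesenchymal or basal breast carcinoma line were listed, with a summed level of 259740 to 360630 CPM in shMCU and 321890 to 365610 CPM in shNC, led by miR-21-5p and miR-100-5p. Not all of the list was abundant. miR-155-5p had 0 to 77.8 CPM in shMCU and 50.3 to 259 CPM in shNC. miR-10b-5p had 476 to 2255 CPM in shMCU and 376 to 865 CPM in shNC. Of an epithelial list of 8, which includes the miR-200 family, 6 were listed by their full name and summed to 619 to 1361 CPM in shMCU and 397 to 2076 CPM in shNC. A further member was listed as miR-203a, without an arm, at 68.1 to 2644 CPM in shMCU and 522 to 4497 CPM in shNC, and with it the sums were 1429 to 3966 CPM in shMCU and 919 to 6573 CPM in shNC. Of an erythroid and blood list of 7, 6 were listed. They summed to 476 to 1089 CPM in shMCU and 648 to 865 CPM in shNC. Of a muscle list of 4, 3 were listed by their full name. Their sums were 77.8 to 232 CPM in shMCU and 125 to 605 CPM in shNC. With miR-1, listed without an arm, the muscle sums were 340 to 1392 CPM in shMCU and 460 to 2422 CPM in shNC. No listed marker of any list was at 0 in all 6 libraries. Of the neural and sensory list of 6, 4 were listed, with summed levels of 1555 to 3335 CPM in shMCU and 951 to 3594 CPM in shNC. Most of this was miR-128-3p, found in every library (1478 to 2475 CPM in shMCU and 778 to 2946 CPM in shNC), and miR-9-5p had 77.8 to 1293 CPM in shMCU and 86.5 to 606 CPM in shNC. The neuronal miR-124-3p had 0 counts in all shMCU libraries and at most 41.8 CPM in shNC.

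miR-183-5p, the first member in the transcript, was present in every library at a moderate level. Its counts were 28, 28 and 43 in shMCU replicates 1, 2 and 3, and 88, 24 and 33 in shNC replicates 1, 2 and 3. Scaled to library totals these were 2166, 1906 and 3344 CPM in the shMCU libraries and 1839, 2076 and 1660 CPM in the shNC libraries. The shMCU replicate 3 library was the highest of the 6, and the remaining shMCU libraries lay close to the shNC range, which the shMCU values overlapped. miR-183-5p ranked from 30 to 47 among the listed miRNAs in shMCU libraries and from 50 to 53 in shNC libraries. For how many listed miRNAs such ranks did not overlap between the groups was not counted, so this is a description only. The ranks of miR-182-5p, 33 to 56 in shMCU and 45 to 54 in shNC, overlapped.

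miR-182-5p, the last member in the transcript and a repressor of BRCA1 in breast carcinoma cells, stood at nearly the same level. It had 19, 23 and 39 counts in shMCU replicates 1, 2 and 3, and 85, 28 and 47 counts in shNC replicates 1, 2 and 3. In CPM, the shMCU libraries had 1469, 1566 and 3033, and the shNC libraries 1776, 2422 and 2364. Here the shMCU libraries fell on both sides of the shNC range: replicates 1 and 2 were below every shNC library and replicate 3 was above every shNC library.

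miR-96-5p, which lies between them and is essential for hearing, was near the limit of detection. It had 3, 0 and 2 counts in shMCU replicates 1, 2 and 3, and 4, 1 and 2 counts in shNC replicates 1, 2 and 3. The 0 counts in shMCU replicate 2 allow a level of up to 204 CPM (the level of 3 counts), which is above the level in every shNC library (83.6 to 101 CPM). In that library a level like that of the shNC libraries could therefore not be told from 0. Per 100 counts of miR-182-5p, there were 6.17 counts of miR-96-5p over the shMCU libraries and 4.38 over the shNC libraries.

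**Figure D1:**
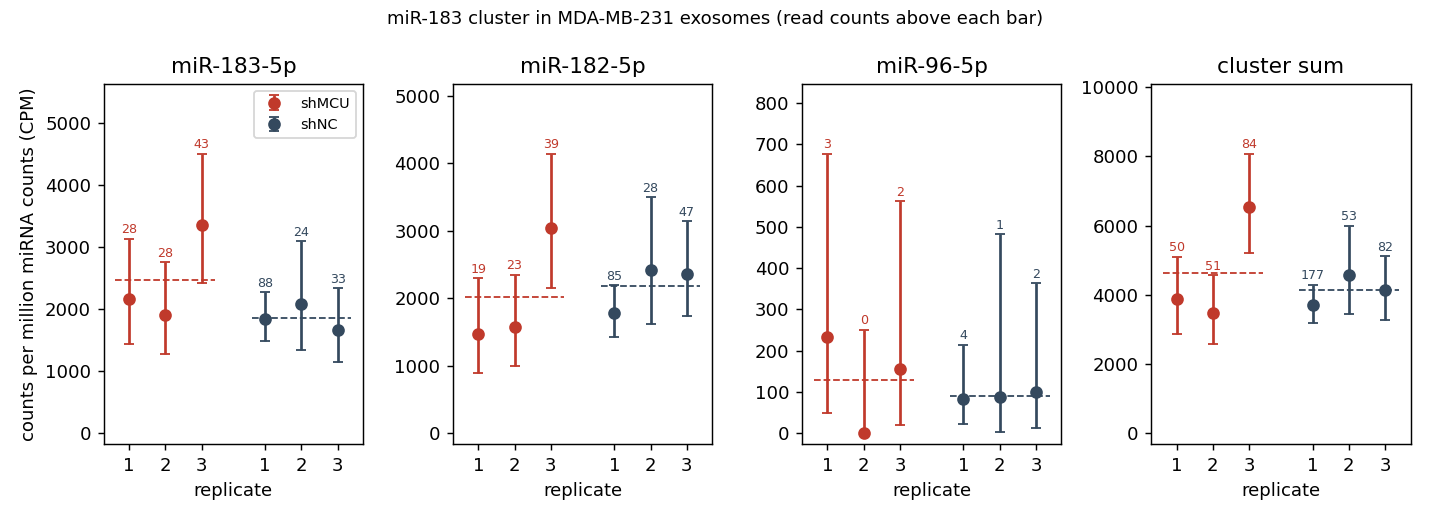
Level of each member and of their sum in every library (points; vertical axis in CPM, horizontal axis replicate within shMCU and shNC), with exact 95% binomial intervals, group means as dashed lines and read counts printed above. shMCU replicate 3 was the highest library for miR-183-5p (3344 CPM), miR-182-5p (3033 CPM) and the sum (6532 CPM), while miR-96-5p rested on 0 to 4 counts per library.

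The order of levels within the cluster was therefore miR-183-5p and miR-182-5p together, with miR-96-5p far below. Over the 6 libraries miR-183-5p averaged 2165 ± 605 CPM and miR-182-5p 2105 ± 605 CPM (SD), so these did not differ beyond their spread. By mean CPM they were the 46th and 48th most abundant of the listed miRNAs, and miR-96-5p was the 173rd. Between them lay miR-181b-5p (2153 ± 743 CPM), with miR-101-3p just above (2170 ± 263 CPM) and miR-378c just below (2080 ± 478 CPM), none of which was separated from its neighbour by more than the spread.

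In such bulk samples, fewer vesicles that carry a miRNA and fewer copies per vesicle cannot be told apart. Much of the variation among libraries was of the size that counting gives. In shNC, the SD of miR-183-5p was 209 CPM where counting error alone gives 317 CPM, and that of miR-182-5p was 357 CPM where counting alone gives 349 CPM. In shMCU the libraries spread more widely, with an SD of 766 CPM for miR-183-5p and 876 CPM for miR-182-5p, against 431 and 390 CPM from counting. Replicate 3 was the highest shMCU library for both. For miR-183-5p its interval of 2421 to 4502 CPM (exact Clopper-Pearson 95% interval, which covers counting error only) excluded the values of the other 5 libraries. It still overlapped the intervals of shMCU replicates 1 and 2 (up to 3128 and 2753 CPM) and of shNC replicate 2 (up to 3087 CPM). For miR-182-5p the interval of 2157.5 to 4144 CPM excluded the values of the other shMCU libraries and of shNC replicate 1, but included those of shNC replicates 2 and 3. It overlapped the interval of every other library.

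Whether MCU knockdown changed the exosomal level of the members was tested with edgeR's quasi-likelihood test on all miRNAs that passed the filter on low counts. Neither of the 2 members that passed it, miR-183-5p and miR-182-5p, was called at an adjusted p of 0.05; of all 79 tested miRNAs 0.0% were called, and 3 (3.8%) had an unadjusted p under 0.05, neither member among them. DESeq2 called 1 miRNA (1.27%), which was not a member. By CPM the groups overlapped for both members, while for 1.27% of the tested miRNAs all shMCU libraries were above all shNC libraries and for 10.1% all were below. The third member, miR-96-5p, did not pass the filter.

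miR-183-5p averaged 2472 ± 766 CPM in shMCU and 1858 ± 209 CPM in shNC (SD, n = 3 each). The fit gave a log2 fold change of 0.66 ± 0.34 (SE), which is 1.58-fold, and its 95% interval ran from 0.93-fold to 2.69-fold. The edgeR quasi-likelihood test across all tested miRNAs gave an adjusted p of 0.70. Among the 79 tested miRNAs, of which 38 were fitted higher in shMCU with a median log2 fold change of -0.02, it had the 7th highest fold change. The value depended on shMCU replicate 3, without which the log2 fold change was 0.22 and the shMCU mean was 2036 CPM. In that library miR-122-5p was also at its highest, and the part of its unlike composition in the result was not tested.

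miR-182-5p averaged 2023 ± 876 CPM in shMCU and 2187 ± 357 CPM in shNC (SD, n = 3 each). The fit gave a log2 fold change of 0.15 ± 0.40 (SE), which is 1.11-fold, with 95% bounds of 0.59-fold and 2.06-fold (adjusted p = 0.92, edgeR quasi-likelihood test). The fitted fold was above 1 although the mean CPM was lower in shMCU. The fit scales libraries by TMM (the factor was lowest for shMCU replicate 3, at 0.82, and highest for shNC replicate 1, at 1.12) and the CPM do not. With library totals alone the log2 fold change was -0.10, and with TMM but no filter on low counts it was -0.02. It was -0.42 without shMCU replicate 3 and -0.03 without shNC replicate 1, so no direction can be given for miR-182-5p. Both intervals are wide, so they do not show that the groups are alike.

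**Figure D2:**
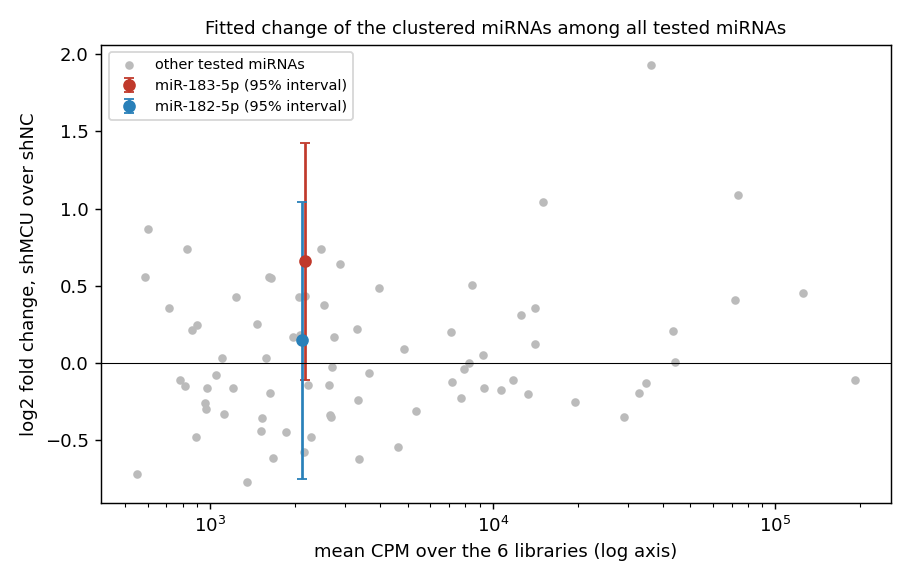
Fitted log2 fold change of shMCU over shNC (vertical axis) against mean CPM over the 6 libraries (horizontal log axis) for all 79 tested miRNAs. miR-183-5p (log2 fold change 0.66) and miR-182-5p (0.15) are drawn with 95% intervals, both of which include 0.

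Over each group, miR-96-5p had 5 of 40481 counts in shMCU and 7 of 79310 in shNC, a ratio of 1.40, and counting error alone spans 0.35 to 5.12 (exact 95% interval). Fitted without a filter on low counts, it had a log2 fold change of 0.45 ± 1.02 (SE) and an adjusted p of 0.85 in the edgeR quasi-likelihood test, in which 1 of 503 miRNAs (0.199%) was called.

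Summed over the cluster, the members had 50, 51 and 84 counts in shMCU replicates 1, 2 and 3, and 177, 53 and 82 counts in shNC replicates 1, 2 and 3. This was 3867, 3471 and 6532 CPM in the shMCU libraries and 3698, 4584 and 4124 CPM in the shNC libraries. The sum thus took 0.462% ± 0.166 of all miRNA counts in shMCU and 0.414% ± 0.0443 in shNC (SD, n = 3 each), and the groups overlapped. The ratio of the means was 1.12, and without shMCU replicate 3 it was 0.89. The sum is given as a description, with no test.

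**Figure D3:**
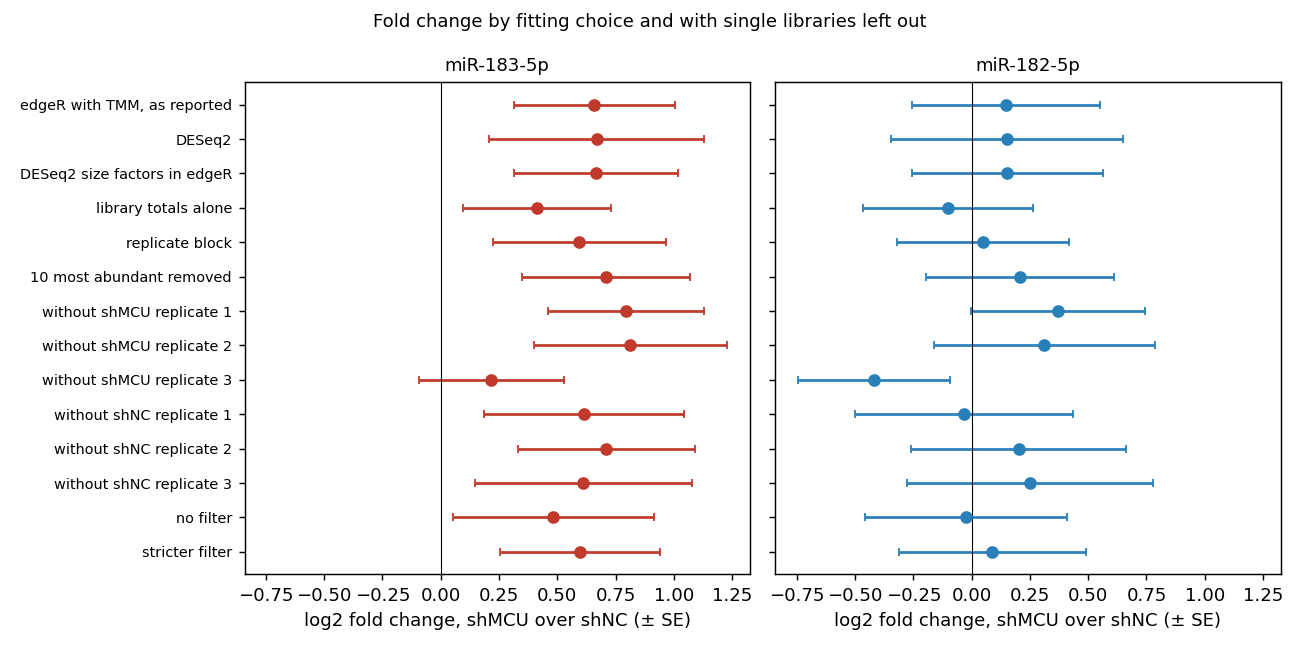
Fitted log2 fold change of shMCU over shNC (horizontal axis, bars are SE) of miR-183-5p and miR-182-5p under each fitting choice and with each library left out (rows). miR-183-5p stayed above 0 in every row, from 0.22 to 0.81, while miR-182-5p lay between -0.42 and 0.37.

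A ratio between clustered miRNAs does not depend on library totals or on scaling. The ratio of miR-183-5p to miR-182-5p counts was 1.47, 1.22 and 1.10 in shMCU replicates 1, 2 and 3, and 1.04, 0.857 and 0.702 in shNC replicates 1, 2 and 3. It was above 1 in every shMCU library and in 1 shNC library, and the groups did not overlap, although the nearest libraries, shMCU replicate 3 and shNC replicate 1, were close. In the same terms, miR-183-5p made up 54.0% ± 2.52 of the cluster's counts in shMCU and 45.1% ± 4.74 in shNC, and miR-182-5p 43.2% ± 4.53 in shMCU and 52.7% ± 4.65 in shNC (SD, n = 3 each). For both shares the exact permutation test (two-sided) gave p = 0.1, the smallest that 3 against 3 libraries allow, or 0.15 after Benjamini-Hochberg adjustment over the 3 shares. The share of miR-96-5p, 2.79% ± 3.02 in shMCU and 2.20% ± 0.282 in shNC, had a p of 0.80 by the same exact test.

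Of all 3081 pairs of tested miRNAs, 9.32% had count ratios that did not overlap between the groups, so the separation of miR-183-5p and miR-182-5p is not a result particular to this pair. Pairs that share a miRNA are not independent. Over the summed counts, 99 of miR-183-5p and 81 of miR-182-5p in shMCU against 145 and 160 in shNC, the ratio was 1.35 times as high in shMCU, with an exact 95% interval from 0.92 to 1.99. This interval, which covers counting error only, includes 1. With each library left out in turn, the share of miR-183-5p was between 6.53 and 11.3 percentage points higher in shMCU; where groups do not overlap, leaving out a library cannot turn the sign, so this range gives only the size.

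**Figure D4:**
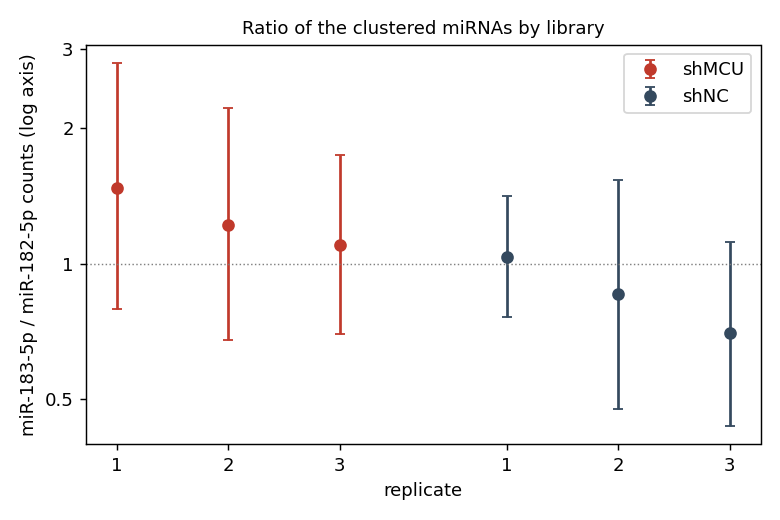
Ratio of miR-183-5p to miR-182-5p counts (vertical log axis) in each library (horizontal axis: replicate within shMCU and shNC), with exact 95% intervals for counting error. The shMCU libraries had ratios of 1.10 to 1.47 and the shNC libraries 0.702 to 1.04, with intervals that overlap throughout.

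As counted, miR-183-5p and miR-182-5p did not follow each other closely across the libraries. Pearson's r of log2 CPM between miR-183-5p and miR-182-5p was 0.53 over the 6 libraries, and -0.41 without shMCU replicate 3. By r over the 6 libraries, miR-182-5p was 7th among the other tested miRNAs in likeness to miR-183-5p. Counting error at such low counts weakens a coefficient of this kind. Whether the levels of the members vary together can therefore not be told from it. The miRNA most like miR-183-5p was miR-10a-5p, a miRNA encoded in a HOX gene cluster (r = 0.91 over 6 libraries, and 0.87 without shMCU replicate 3). miR-122-5p (r = 0.79) and miR-148a-3p (r = 0.79) came next, but with shMCU replicate 3 left out these were -0.07 and -0.16. Most like miR-182-5p were miR-140-3p (r = 0.87), miR-148b-3p (r = 0.85) and miR-143-3p (r = 0.70), which were 0.74, 0.70 and 0.64 without shMCU replicate 3. These coefficients are descriptions over 6 libraries that share their totals as denominators, and the highest of many were picked.

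Related miRNAs were scarce. The opposite arm miR-182-3p had 1 count over the shMCU libraries (in replicate 3) and 1 over the shNC libraries (in replicate 1), against 81 counts of miR-182-5p in shMCU and 160 in shNC, while miR-183-3p and miR-96-3p were not among the listed miRNAs. The seed relative miR-1271-5p had 0 counts in shMCU and 1 count in shNC.

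Of 7 miRNAs from the surrounding part of the long arm of chromosome 7, 5 were listed, 1 was tested and 0 passed the test in either direction. The tested one was miR-29a-3p, a repressor of collagen and other matrix genes. It had 156, 112 and 65 counts in shMCU replicates 1, 2 and 3, and 421, 135 and 215 counts in shNC replicates 1, 2 and 3. Its mean level was 8248 ± 3547 CPM in shMCU and 10428 ± 1478 CPM in shNC (SD, n = 3 each), with a fitted fold of 0.89 (95% interval 0.58 to 1.38; adjusted p = 0.89, edgeR's quasi-likelihood test). In contrast to the cluster members it was lowest in shMCU replicate 3. The other listed ones had low counts. miR-29b-3p had 4 counts over the shMCU libraries and 22 over the deeper shNC libraries (mean 103 and 319 CPM). miR-335-5p had 2 in shMCU and 6 in shNC (mean 48.6 and 51.6 CPM). miR-335-3p had 3 counts in shMCU and 6 in shNC (mean 74.2 and 71.2 CPM). The counts of miR-129-5p were 2 in shMCU and 1 in shNC (mean 45.4 and 6.96 CPM). Both miR-29b-3p and miR-129-5p also have a hairpin on another chromosome, whose reads are counted with them.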

How the data were processed

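Small RNA reads were aligned by the authors with Bowtie to hg19, per the submitters' processing notes; which version, mismatch setting, counting tool and miRNA annotation they used is not given in the sources used here. They deposited raw counts of reads for each mature miRNA, with a table for every library; the unit was read from the values. No molecular identifiers are stated, so reads copied from the same molecule could not be told apart. Intervals treat reads as independent, cover counting error only and may be too narrow. Libraries were grouped by title.

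The comparison used edgeR 4.0.16 under R 4.3.3 on all 503 listed miRNAs (TMM, filterByExpr with a minimum count of 10, robust quasi-likelihood fit, group as the only term, Benjamini-Hochberg adjustment); SE is the log2 fold change over the square root of F. The script was tested on simulated data with planted changes larger than those fitted for the members, so that test does not cover changes of their size. Alternatives were DESeq2 1.42.0, other scalings, filters, a replicate block and each library left out. CPM use library totals and are not TMM-scaled. Log2 CPM for correlations had a prior count of 2. Shares within the cluster were compared by exact permutation. Hairpin coordinates are from GENCODE release 29 (GRCh38) and were not converted to the build of the alignment. Named were the members, the opposite arms, a seed relative, neighbours on the chromosome, the 3 miRNAs most like each tested member, and those next to it in level. Members and lists were chosen with earlier results of these data known.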

Additional observations from a re-analysis of the deposited data

How the results depend on the processing

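Every alternative was planned. The count of called miRNAs, 0 in the edgeR test, was 1 with DESeq2 and 1 without a filter, and neither was a member; it was 0 with each library left out in turn. The log2 fold change of miR-183-5p kept its sign in all 13 alternatives, from 0.22 to 0.81, with adjusted p from 0.33 to 0.99. That of miR-182-5p, 0.15, was -0.10 with library totals alone, -0.023 without a filter, -0.42 without shMCU replicate 3 and -0.03 without shNC replicate 1, with a range of -0.42 to 0.37 over libraries left out. That of miR-96-5p was 0.45, fitted without a filter on low counts here and in every alternative that gave a value. It was -0.11 without shMCU replicate 1 and up to 1.02 with another library left out. The share of miR-96-5p in the cluster differed by -1.01 percentage points (shMCU minus shNC) without shMCU replicate 1, and by up to 1.995 otherwise. The cause of these changes was not tested. Neither the filter of the main test nor the stricter filter gave a value for miR-96-5p. With the 10 most abundant miRNAs left out of the totals, CPM differences (shMCU minus shNC) were 2814 for miR-183-5p, 359 for miR-182-5p, 149 for miR-96-5p and 3322 for the sum, and with TMM effective totals they were 1007 for miR-183-5p, 221.5 for miR-182-5p, 52.6 for miR-96-5p and 1281 for the sum. With all listed miRNAs in the totals they were 614, -164, 39.0 and 488 in the same order. Leaving the most abundant miRNAs out makes every total smaller and every CPM larger, so the sizes of those differences cannot be compared with the others. The sign for miR-182-5p turned with those totals and with TMM effective totals, where only the denominators were changed. Which miRNAs made the denominators shift between libraries was not tested. With all listed miRNAs in the totals and a library left out, the CPM differences ran from 178 to 897 for miR-183-5p, -669.6 to 112 for miR-182-5p, -12.4 to 104 for miR-96-5p and -466 to 1064 for the sum, which was negative without shMCU replicate 3. Shares of miR-183-5p and miR-182-5p within the cluster differed by 6.53 to 11.3 and by -11.9 to -6.96 points. Whether replicate numbers pair libraries is not stated. Deviations of same-numbered libraries correlated at 0.16, -0.35 and 0.08, which cannot settle it. A replicate block gave 0 calls and log2 fold changes of 0.59 for miR-183-5p and 0.05 for miR-182-5p. Fitted with the block but without a filter, miR-96-5p had 0.56. Depth limits miR-96-5p most: 3 counts correspond to 62.7 to 259 CPM.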
